A study of Homo sapiens with 18 samples.

Results

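The 30 genes described here are targets and partners of ATF4, a transcription factor of the amino acid and endoplasmic reticulum stress response, together with the enzymes of serine synthesis and mitochondrial folate metabolism. They were chosen by name with earlier results of these data known, and each matched 1 of the 36601 gene IDs in the deposited tables. They were followed in 18 RNA libraries of 3 human cholangiocarcinoma (bile duct cancer) cell lines, KKU-100, YSCCC and HuCCT1. In each line, cells stably carrying the lentiviral hairpin shRNF213#2, directed against the ubiquitin ligase gene RNF213, were set against cells carrying the hairpin shControl, with 3 biological replicates per group. Per the labels KKU-100 came from biliary tract, YSCCC from liver and HuCCT1 from bile duct. KKU-100 grew in Ham's F12 medium and the other lines in RPMI-1640, so line and medium cannot be told apart. A single hairpin against RNF213 was used, and no label says whether a line is 1 clone.

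When amino acids run short or proteins misfold, kinases phosphorylate the translation factor eIF2, most translation slows, and the ATF4 messenger is translated more. ATF4 then binds composite elements with partners of the C/EBP family and switches on genes for amino acid synthesis, uptake and tRNA charging. Because ATF4 is controlled largely by translation, the level of its own messenger is a poor guide to its activity. PHGDH, PSAT1 and PSPH make serine from a glycolytic intermediate, and SHMT2, MTHFD2, MTHFD1L and ALDH1L2 pass the carbon of serine through the mitochondrial folate cycle.

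The composite element bound by ATF4 and a C/EBP partner is usually written TGATGNAA. Whether the element had a part in any change of the 30 genes was not tested. In RefSeq promoters of build GRCh38.p14, reaching from 250 bases before to 50 bases after a start site, the element was searched on both strands. It lay in 6 of the 24 member genes present in that table (25.0%), against 4.46% of 27305 genes. The form TGATGCAA, which is contained in it, lay in 4 of 24 members (16.7%), against 1.08% of all genes. The members were chosen by name as targets and partners of ATF4, so a higher share could follow from that choice alone. They also had 39 windows for 24 genes, against 35116 windows for 27305 genes. In the windows of 30 bases below, capitals mark the element, which in CHAC1 reads on the opposite strand.
ATF3: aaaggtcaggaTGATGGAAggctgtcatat
MTHFD1L: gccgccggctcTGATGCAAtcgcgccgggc
ASNS: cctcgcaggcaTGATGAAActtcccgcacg
JDP2: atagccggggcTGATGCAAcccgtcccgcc
CHAC1: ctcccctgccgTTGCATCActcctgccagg
CEBPG: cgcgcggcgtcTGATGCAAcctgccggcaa
A match describes letters in a window and is not a measured binding site.

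Library totals ran from 21056732 to 25502097 counts. RNF213, the gene targeted by the hairpin, was lower in shRNF213#2 than in shControl by 0.97 log2 units in KKU-100 (SE 0.15, edgeR adjusted p = 0.0462), by 1.16 in YSCCC (SE 0.13, adjusted p = 0.000307) and by 0.89 in HuCCT1 (SE 0.18, adjusted p = 0.136). In HuCCT1 this difference did not pass the threshold of 0.05. RNF213 there had 277, 431 and 286 CPM (counts scaled to library size) in shRNF213#2, against 394, 1277 and 433 CPM in shControl. The gap was widest in replicate 2. The keratins KRT7, KRT8 and KRT18 were present in all 3 lines. However, the biliary and epithelial markers KRT19 and EPCAM did not exceed 0.181 and 0.134 CPM in any KKU-100 library. Summed hepatocyte markers stayed at or below 0.402 CPM in every library.

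Libraries with the same replicate number resembled each other across the arms of a line, and more of the 30 genes were called between replicate numbers than between hairpins. In YSCCC, the standard deviation of log2 CPM between replicates had a median over 29 members of 0.78 in shRNF213#2 and 0.78 in shControl, against 0.25 and 0.26 over all expressed genes. In KKU-100 the member medians were 0.33 in shRNF213#2 and 0.31 in shControl, against 0.21 and 0.25 over all expressed genes. In HuCCT1 they were 0.28 in shRNF213#2 and 0.30 in shControl, against 0.18 and 0.19. An edgeR quasi-likelihood test of any difference between the 3 numbers, with the arm as a term, called 25 of 30 members in YSCCC (45.4% of all genes tested were called), 6 of 30 in KKU-100 (4.90%) and 11 of 29 in HuCCT1 (19.2%). Called means an adjusted p below 0.05 over all genes tested. In this test and those of a single number below, the libraries of a number in both arms stood as its replicates. Their p-values rest on the scatter left after number and arm, and do not measure variation between independent repeats of a number. PSAT1 was too low in HuCCT1 to be tested there.

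**Figure D1:**
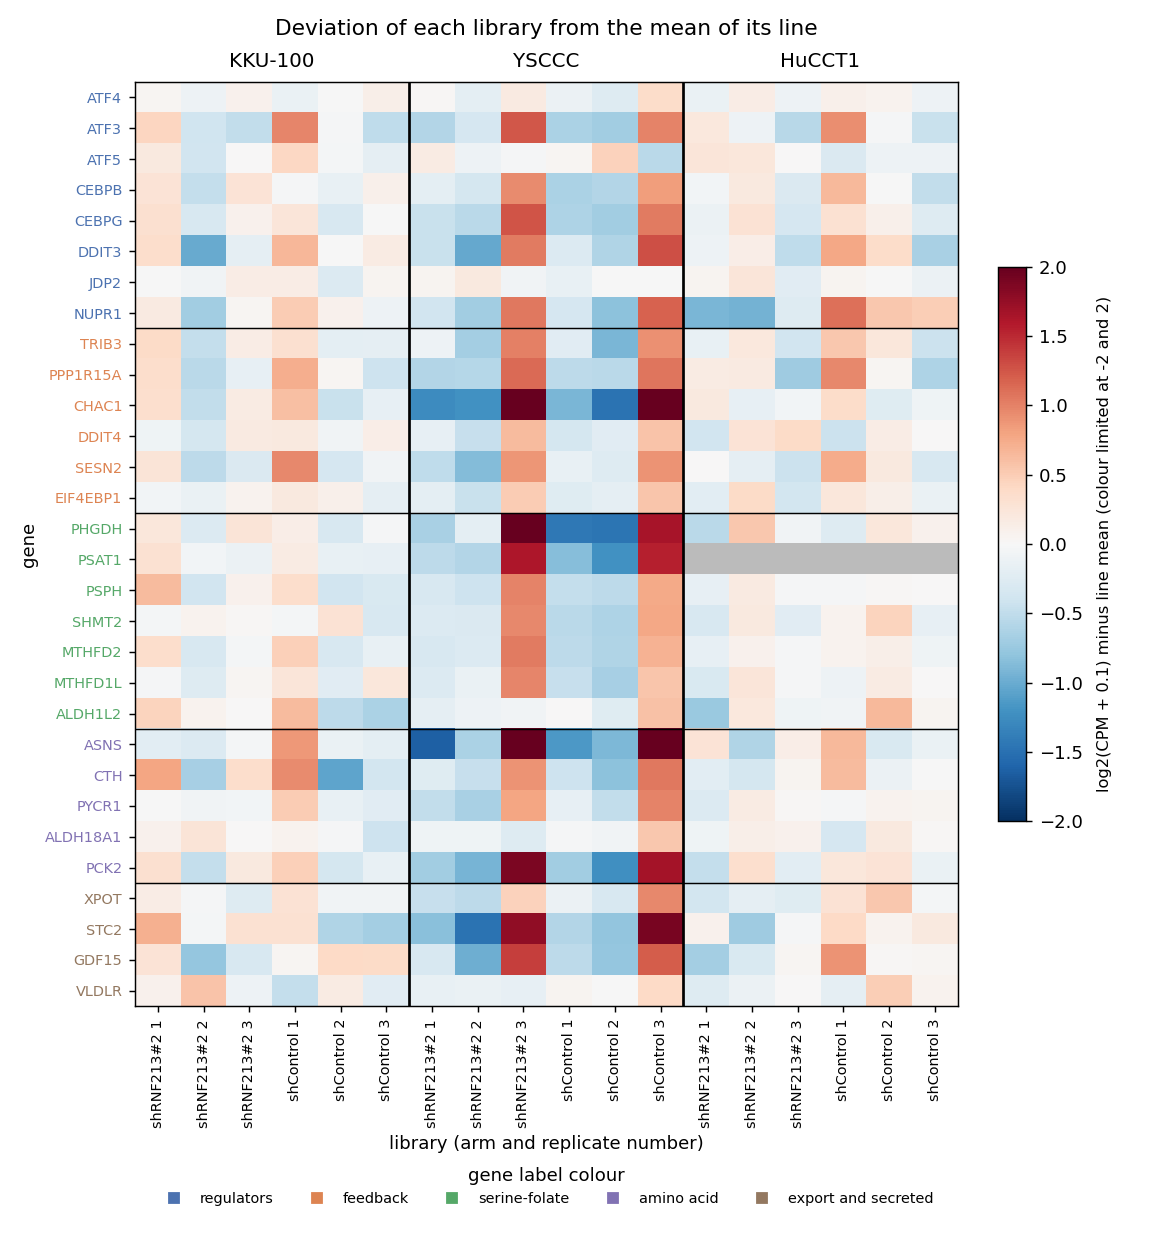
Deviation of log2(CPM + 0.1) from the mean of the 6 libraries of a line, for 30 genes (rows, grouped by role) in 18 libraries (columns). Both YSCCC replicate 3 libraries are high for most genes, and PSAT1 is left grey in HuCCT1, where it had 2 counts in shRNF213#2 and 2 in shControl.

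Both replicate 3 libraries of YSCCC carried most of that spread. Set against replicates 1 and 2, 25 of 30 members were called higher and 0 lower, where 25.3% of all genes tested were called higher and 50.5% were called in either direction. The median log2 fold change was 1.37 over members and 0.02 over all genes tested. The comparison was set up with these libraries' values known, and a large share of all genes moved with the same number. DESeq2 and limma on log2(TPM + 1), where TPM is an abundance scaled for transcript length and library size, each called 25 members higher and 0 lower.

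Among the regulators, ATF4 itself moved little: it had 496 CPM in shRNF213#2 and 566 CPM in shControl of replicate 3, against 367 to 446 CPM in the other 4 YSCCC libraries. Its log2 fold change was 0.44 (SE 0.10, adjusted p = 0.00185). DDIT3, the stress factor CHOP, had 81.9 and 97.1 CPM in replicate 3, against 19.4 to 32.9 CPM in the others, with no overlap (log2 fold change 1.79, SE 0.10, adjusted p = 4.04e-08). CEBPG, a C/EBP partner of ATF4, rose by 1.76 log2 units and ATF3, a stress-induced factor of the same family, by 1.71. NUPR1, a stress-induced chromatin protein, rose by 1.71 to 572 and 624 CPM, against 155 to 218 CPM. CEBPB rose by 1.37. JDP2, whose promoter window holds TGATGCAA, had 37.4 and 39.2 CPM in replicate 3, against 35.4 to 45.2 CPM, and ATF5 had 25.9 and 18.2 CPM, against 24.5 to 36.4 CPM; neither passed the test.

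All 6 feedback genes were called higher. CHAC1, which degrades glutathione, had 123 CPM in shRNF213#2 and 115 CPM in shControl of replicate 3, against 7.88 to 11.7 CPM in the other libraries. Its mean was 12.5-fold higher, and its log2 fold change of 3.68 (SE 0.12, adjusted p = 1.14e-09) was the largest of the 30. PPP1R15A, the phosphatase subunit that restores eIF2, had 286 and 273 CPM, against 86.8 to 90.9 CPM, a log2 fold change of 1.69. TRIB3, a pseudokinase that restrains the response, had 380 and 357 CPM, against 100.0 to 176 CPM (1.48). SESN2 and DDIT4, inhibitors of mTORC1 signalling, rose by 1.37 and 0.93, and EIF4EBP1, a translation repressor, by 0.84.

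**Figure D2:**
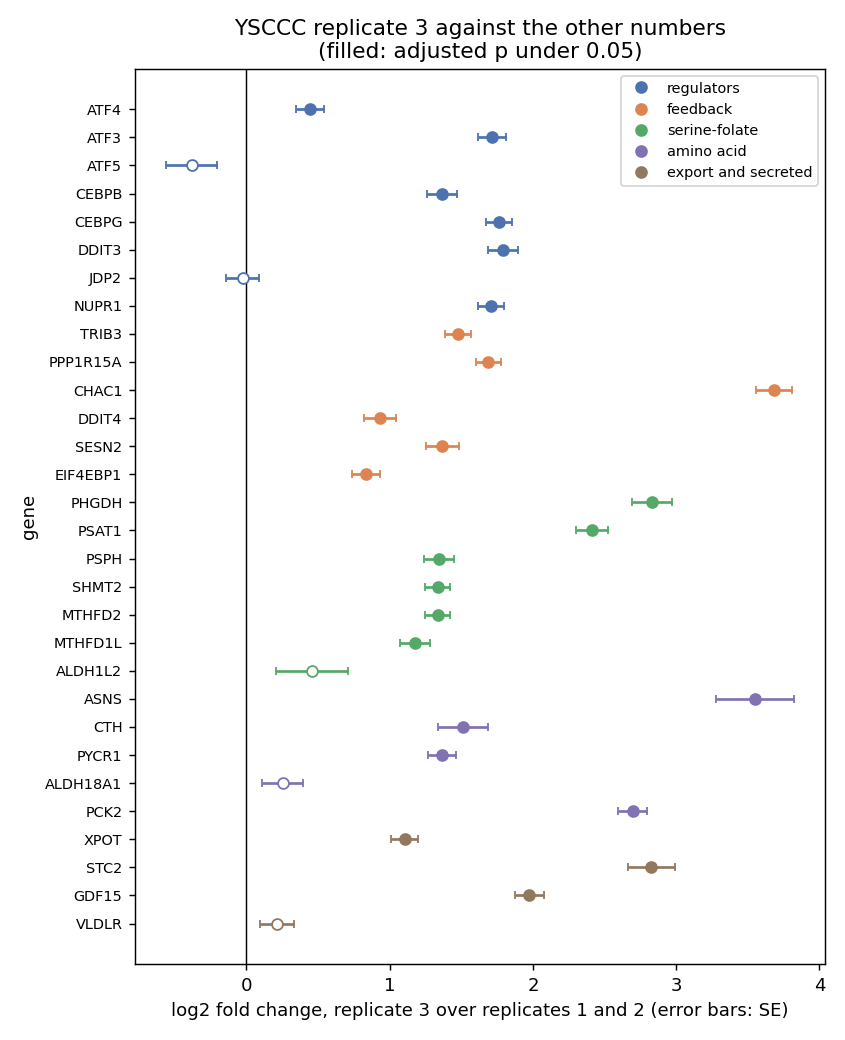
Log2 fold change of YSCCC replicate 3 (2 libraries) over replicates 1 and 2 (4 libraries) for each gene, with its SE, coloured by role. CHAC1 and ASNS lie farthest to the right, ATF4 is at 0.44, and the 5 open circles did not pass the test.

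The serine and folate enzymes were called higher in 6 of 7 cases. PHGDH, the first enzyme of serine synthesis, had 126 CPM in shRNF213#2 and 93.7 CPM in shControl of replicate 3, against 10.8 to 25.9 CPM in the other libraries (log2 fold change 2.83, SE 0.14, adjusted p = 1.73e-08). PSAT1, the second enzyme, had 344 and 332 CPM, against 48.5 to 78.1 CPM (2.41, SE 0.11, adjusted p = 1.09e-08). PSPH, the last step, had 67.0 and 57.0 CPM, against 23.4 to 26.9 CPM (1.342). Its pseudogene PSPHP1 is nearly identical, so how reads were divided between them is uncertain. In the mitochondrial cycle SHMT2 and MTHFD2 each rose by 1.33 and MTHFD1L by 1.18. SHMT2 had 360 and 317 CPM in replicate 3, against 121 to 153 CPM. ALDH1L2, which oxidises formyl-folate, was near 2 CPM throughout YSCCC and did not pass the test.

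Of the amino acid enzymes, PCK2, a mitochondrial enzyme that makes phosphoenolpyruvate, had 185 and 160 CPM in replicate 3, against 21.4 to 31.1 CPM (2.70, SE 0.10). CTH and PYCR1, which make cysteine and proline, rose by 1.51 and 1.37, and ALDH18A1 did not pass (0.25, SE 0.15). ASNS, asparagine synthetase, rose by 3.55 (SE 0.27) on 4.23 and 4.85 CPM, against 0.233 to 0.567 CPM. Its counts were low beside its TPM, with a median of 54.2 TPM per CPM where the other members had 0.311 to 4.88, and the gene AC079781.5 overlaps it on the same strand. By the deposited TPM, ASNS had 383 in shRNF213#2 and 297 in shControl of replicate 3, against 24.1 to 39.9 in the other libraries, so both units place replicate 3 apart. GDF15, a secreted stress hormone, rose by 1.98 (SE 0.10), STC2, a secreted glycoprotein, by 2.83 (SE 0.16) to 18.5 and 20.2 CPM, and XPOT, the tRNA exporter, by 1.10. VLDLR did not pass (0.21, SE 0.12).

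Neighbouring pathways moved with the same libraries. Their gene lists, too, were chosen with earlier results of these data known. Of 20 aminoacyl-tRNA synthetases 13 were called higher and 2 lower, led by WARS at 2.12 log2 units. Of 12 amino acid transporters 9 were higher and 1 lower, with SLC1A4, a serine and alanine carrier, at 3.12 and SLC6A9, a glycine carrier, at 2.14. Of 19 endoplasmic reticulum chaperones and sensors 16 were higher and 0 lower, with ERN1 at 2.62, HERPUD1 at 2.08 and HSPA5 at 1.72. The list medians were 0.83, 1.21 and 0.82, against 0.02 over all genes tested. The other folate and glycine enzymes split, with 4 higher and 8 lower of 20: CBS rose by 2.22, while TYMS, which makes thymidylate, fell by 2.38 and GLDC, of the glycine cleavage system, fell by 2.97. Of 11 p53 targets tested 2 were higher and 6 lower. Of 15 eIF2 kinases and eIF2 or eIF2B genes 5 were higher and 0 lower, and of 8 genes of the mitochondrial stress relay 5 were higher and 1 lower. Among all genes tested, 25.3% were called higher and 50.5% in either direction.

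Cell-type markers moved with replicate 3 too. Summed over 5 epithelial markers they were at 3861 and 4034 CPM in replicate 3, against 6307 to 7322 CPM in the other YSCCC libraries. KRT19, KRT8, KRT18 and EPCAM were lower there, while KRT7 was at 685 to 867 CPM in replicate 3, against 619 to 642 CPM in the others. Summed fibroblast markers were at 36.2 and 53.4 CPM, against 136 to 246 CPM, and endothelial markers at 14.9 and 28.6 CPM, against 59.7 to 96.8 CPM. The fibroblast sum was mostly LUM, at 29.6 to 42.7 CPM in replicate 3, against 117 to 234 CPM, and the endothelial sum mostly CDH5, at 13.8 to 26.8 CPM, against 57.6 to 93.1 CPM. COL1A1 was also lower, but DCN, PDGFRB, PECAM1 and VWF overlapped between replicate 3 and the others. Leukocyte markers were at 68.4 and 70.9 CPM, against 53.9 to 75.2 CPM. That sum was mostly CD68, at 52.1 to 72.3 CPM over the YSCCC libraries. PTPRC, CD3E and LYZ did not exceed 1.97, 0.0388 and 2.80 CPM there. The part of these shifts in the gene changes was not tested. In bulk RNA, fewer cells of a type and less RNA per cell cannot be told apart.

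The other lines showed smaller shifts between numbers. In KKU-100, replicate 1 against the other numbers gave 11 members higher and 0 lower (5.86% of all genes tested were called higher), with a median of 0.41. CTH rose by 1.30, ATF3 by 1.04 and SESN2 by 0.90. MTHFD2 rose by 0.60, with 653 CPM in shRNF213#2 and 710 CPM in shControl of replicate 1, against 407 to 498 CPM in the other libraries. Without the shControl replicate 1 library, edgeR called 0 members and 1 gene in all. The log2 fold changes of the 11 members were then 0.35 to 0.89, against 0.57 to 1.30 with all libraries, and all 11 stayed positive.

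In HuCCT1 the members divided. Replicate 1 had 5 members higher and 3 lower (6.08% and 4.89% of all genes tested were called higher and lower). ATF3 rose by 0.89, PPP1R15A by 0.89 and CHAC1 by 0.44, while PHGDH fell by 0.58, ALDH1L2 by 0.59 and DDIT4 by 0.59. ASNS was called higher by counts (0.71, adjusted p = 0.0462), but by TPM its log2 difference was -0.24. Without the shControl replicate 1 library, 0 members were called higher and 3 lower. Replicate 2 had PHGDH, SHMT2 and ALDH1L2 higher and CHAC1 lower (6.70% of all genes tested were called higher and 5.61% lower). PHGDH had 344 CPM in shRNF213#2 and 277 CPM in shControl of replicate 2, against 163 to 250 CPM in the other libraries. By limma on log2(TPM + 1) 0 members were higher and 1 lower for replicate 2. Leaving out a replicate number gave other counts: 9 members were called without replicate 1 and 9 without replicate 3. The share of all genes called in those settings is not given here, so whether calls rose in general cannot be told from these counts. The CHAC1 call was lost in 4 of 8 alternative settings. Replicate 3 had 6 members lower (4.69% of all genes tested were called lower), among them PPP1R15A by 1.02, DDIT3 by 0.87 and TRIB3 by 0.61. Without the shControl replicate 3 library 1 member was called there.

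Against that spread, the RNF213 hairpin was compared within pairs of equal replicate number. In KKU-100, 0 of 30 members were called by edgeR (0.443% of all genes tested), 6 had an unadjusted p below 0.05 (2391 of 14915 genes tested did), DESeq2 called 2 and limma on TPM 0. The median log2 fold change was -0.01. Pair 3 had 24 of 30 members higher in shRNF213#2, while pairs 1 and 2 had 12 and 10 higher. The share of all genes higher in a single pair is not given here or for the other lines. ATF4 had 1036, 937 and 1069 CPM in shRNF213#2, against 915, 998 and 1093 CPM in shControl, and the groups overlapped.

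In HuCCT1, 0 of 29 members were called by edgeR (0.140% of all genes tested), 10 had an unadjusted p below 0.05 (11.1% of all genes tested did), DESeq2 called 2 and limma on TPM 0. The median was -0.15, and 4 of 29 members had a positive fold change. Over all genes tested the median was -0.002, and 49.7% had a positive fold change. Pair 1 had 26 of 29 members lower in shRNF213#2, with a median of -0.38, and pairs 2 and 3 had 15 and 18 lower, with medians of -0.01 and -0.04. NUPR1 had 1.37, 1.32 and 2.20 CPM in shRNF213#2, against 5.79, 3.89 and 3.77 CPM in shControl, with no overlap at this low level. DDIT3 had 27.4, 32.4 and 20.8 CPM in shRNF213#2, against 50.6, 38.4 and 18.8 CPM in shControl, with overlap.

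**Figure D3:**
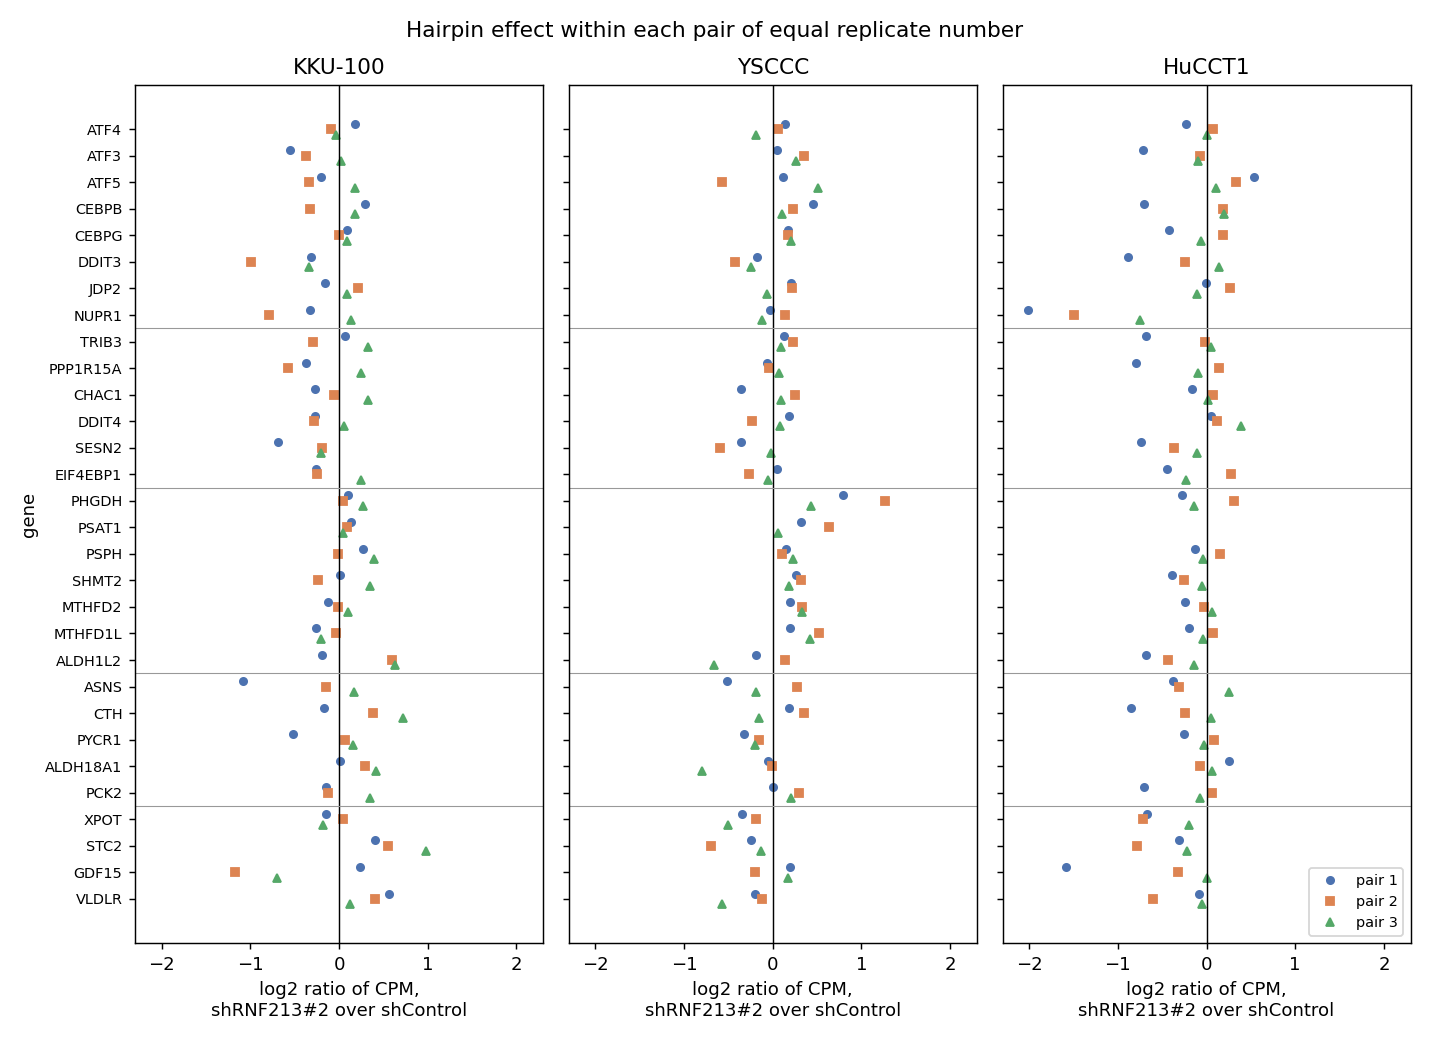
Log2 ratio of CPM, shRNF213#2 over shControl, within each of the 3 pairs of a line for 30 genes. HuCCT1 pair 1 lies left of 0 for 26 of 29 genes, and PHGDH in YSCCC lies right of 0 in every pair.

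In YSCCC, PHGDH and MTHFD1L were called higher in shRNF213#2 and XPOT lower, 3 of 30 members where 8.25% of all genes tested were called, 3.69% higher and 4.56% lower. PHGDH had 19.1, 25.9 and 126 CPM in shRNF213#2 replicates 1 to 3, against 10.99, 10.78 and 93.7 CPM in shControl. The groups overlapped across numbers, but shRNF213#2 was higher in each pair (log2 fold change 0.80, SE 0.14, adjusted p = 0.0049). MTHFD1L had 50.1, 54.96 and 119 CPM in shRNF213#2, against 43.9, 38.2 and 88.9 CPM in shControl (0.38, SE 0.10, adjusted p = 0.0394). XPOT had 270, 260 and 513 CPM in shRNF213#2, against 344, 297 and 728 CPM in shControl (-0.35, SE 0.09, adjusted p = 0.032). PSAT1 at 0.33, MTHFD2 at 0.29 and SHMT2 at 0.25 did not pass (adjusted p = 0.0933, 0.0623 and 0.0964). Without the replicate block 0 members and 0 genes in all were called in YSCCC, and without replicate 1 the calls of PHGDH (adjusted p = 0.057), MTHFD1L and XPOT were lost. Over all 8 alternative settings the call was lost in 2 for PHGDH, 5 for MTHFD1L and 4 for XPOT, and the direction held in each.

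Averaged over the lines, 4 of 30 members were called lower in shRNF213#2 and 0 higher (2.90% of all genes tested were called, 1.47% lower), with a median of -0.02. SESN2 was lower in shRNF213#2 in 9 of 9 pairs (log2 fold change -0.37, SE 0.08, adjusted p = 0.0249). XPOT was lower in 8 of 9 pairs (-0.33, SE 0.07, adjusted p = 0.0152), as was DDIT3 (-0.40, SE 0.10, adjusted p = 0.0399). NUPR1 was lower in 7 of 9 pairs (-0.60, SE 0.11, adjusted p = 0.0105). Its widest log2 ratios, -2.02, -1.50 and -0.75, were in HuCCT1 at only 1.32 to 5.79 CPM. They were -0.33, -0.78 and 0.14 in KKU-100 and -0.04, 0.14 and -0.13 in YSCCC. PHGDH at 0.30 did not pass (adjusted p = 0.0677). Without the block, or without replicate 1, 0 of the 30 members were called.

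STC2 was called for a difference in hairpin effect between KKU-100 and YSCCC, though not in all settings. STC2 had 1045, 620 and 791 CPM in shRNF213#2 of KKU-100, against 790, 422 and 400 CPM in shControl, and was higher in each pair. In YSCCC it had 2.95, 1.85 and 18.5 CPM in shRNF213#2, against 3.53, 3.05 and 20.2 CPM in shControl, and was lower in each pair. The effect in KKU-100 minus that in YSCCC was 0.94 log2 units (SE 0.20, adjusted p = 0.0258), the 1 member called where 2.63% of all genes tested were called. It was lost without the block and on leaving out any 1 replicate number. The effect in KKU-100 minus that in HuCCT1 was 1.06 (SE 0.21, adjusted p = 0.0555), and STC2 had only 2.35 to 5.22 CPM in HuCCT1. In that comparison edgeR called 0 members (0.235% of all genes tested), 7 had an unadjusted p below 0.05 (12.5% of all genes tested did), DESeq2 called 2 and limma on TPM 0. For YSCCC minus HuCCT1 edgeR called 0 (0.0470%), 6 had an unadjusted p below 0.05 (8.83% of all genes tested did), DESeq2 called 2 and limma on TPM 1.

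Between the shControl cells of the lines, levels differed for about as large a share of members as of all genes. KKU-100 against YSCCC had 19 members higher and 1 lower (60.7% of all genes tested were called, 27.9% higher and 32.9% lower), with a median of 1.43 over members and -0.09 over all genes. KKU-100 against HuCCT1 had 14 higher and 1 lower (57.4%, 27.3% higher and 30.1% lower), with medians of 0.89 and -0.01. YSCCC against HuCCT1 had 5 higher and 9 lower (58.4%, 30.2% higher and 28.1% lower), with medians of -0.52 and 0.02. The comparisons share control libraries. Without the YSCCC shControl replicate 3 library, KKU-100 against YSCCC had 27 members higher and 1 lower. YSCCC against HuCCT1 then had 5 higher and 18 lower. The share of all genes called in that setting is not given here, so whether calls rose in general cannot be told from these counts.

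ATF4 was highest in KKU-100. It averaged 1116 ± 109 TPM in KKU-100, 566 ± 170 TPM in YSCCC and 713 ± 41.0 TPM in HuCCT1 (SD, n = 3 each). The log2 fold change was 1.19 for KKU-100 over YSCCC (SE 0.19, adjusted p = 0.000411), 0.59 for KKU-100 over HuCCT1 (adjusted p = 0.0223) and -0.60 for YSCCC over HuCCT1 (adjusted p = 0.02). The KKU-100 over HuCCT1 call was lost in 5 of 14 alternative settings and the YSCCC over HuCCT1 call in 6 of 14, with the direction unchanged in each. ATF5, a relative of ATF4, ranged from 174 to 261 TPM in KKU-100, 28.1 to 52.0 TPM in YSCCC and 19.7 to 24.1 TPM in HuCCT1. The step between YSCCC and HuCCT1 did not pass (adjusted p = 0.0505). DDIT3 and TRIB3 did not pass between KKU-100 and either other line.

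Levels of the serine enzymes differed between the lines. PSAT1 averaged 594 ± 73.6 TPM in KKU-100 and 173 ± 196 TPM in YSCCC (SD, n = 3 each). In HuCCT1 it was nearly absent: the 3 shControl libraries held 2 counts in all, as did the 3 shRNF213#2 libraries. The ratio of KKU-100 to HuCCT1 in shControl CPM was 21246, with an exact 95% interval of 5881 to 175439 that covers counting error alone. For YSCCC over HuCCT1 it was 5366 (1485 to 44312). In the YSCCC shControl libraries PSAT1 had 332 CPM in replicate 3, against 62.7 and 48.5 CPM in replicates 1 and 2, and without replicate 3, an alternative chosen after these values were seen, the ratio was 1937 (536 to 16001). HuCCT1 nevertheless held the neighbouring steps: PHGDH averaged 199 ± 28.5 TPM in KKU-100, 44.7 ± 56.5 TPM in YSCCC and 241 ± 32.2 TPM in HuCCT1, and PSPH 106 ± 26.9, 49.6 ± 29.7 and 93.5 ± 5.68 TPM in the same order (SD, n = 3 each). The YSCCC mean of PHGDH hides 110 TPM in replicate 3 and 11.9 and 12.3 TPM in replicates 1 and 2.

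Further along, ALDH1L2 averaged 69.9 ± 34.7 TPM in KKU-100, 0.867 ± 0.273 TPM in YSCCC and 27.2 ± 6.96 TPM in HuCCT1 (SD, n = 3 each). KKU-100 exceeded YSCCC by 6.66 log2 units (SE 0.46, adjusted p = 1.41e-06), and YSCCC lay below HuCCT1 with a log2 fold change of -5.31 (adjusted p = 6.15e-06). SHMT2 and MTHFD2 spanned less: MTHFD2 averaged 308 ± 90.6 TPM in KKU-100, 126 ± 75.8 TPM in YSCCC and 179 ± 7.40 TPM in HuCCT1. ASNS averaged 440 ± 151 TPM in KKU-100, 120 ± 153 TPM in YSCCC and 340 ± 55.5 TPM in HuCCT1. Its call for KKU-100 over YSCCC (2.91 by counts, adjusted p = 0.0121) was lost in 3 of 14 alternative settings.

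STC2, GDF15 and NUPR1 also spanned wide ranges. STC2 averaged 220 ± 85.0 TPM in KKU-100, 4.502 ± 5.02 TPM in YSCCC and 2.22 ± 0.193 TPM in HuCCT1. GDF15 averaged 757 ± 108 TPM in KKU-100, 431 ± 375 TPM in YSCCC and 17.5 ± 6.80 TPM in HuCCT1. NUPR1 averaged 428 ± 95.8 TPM in KKU-100, 455 ± 392 TPM in YSCCC and 3.93 ± 1.30 TPM in HuCCT1 (SD, n = 3 each). GDF15 and NUPR1 did not pass the test between KKU-100 and YSCCC (adjusted p = 0.0765 and 0.586). VLDLR, a lipoprotein receptor, was the member called lower in KKU-100 than in YSCCC, at 10.6 ± 1.07 and 26.8 ± 5.15 TPM. JDP2 was the member called lower in KKU-100 than in HuCCT1.

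**Figure D4:**
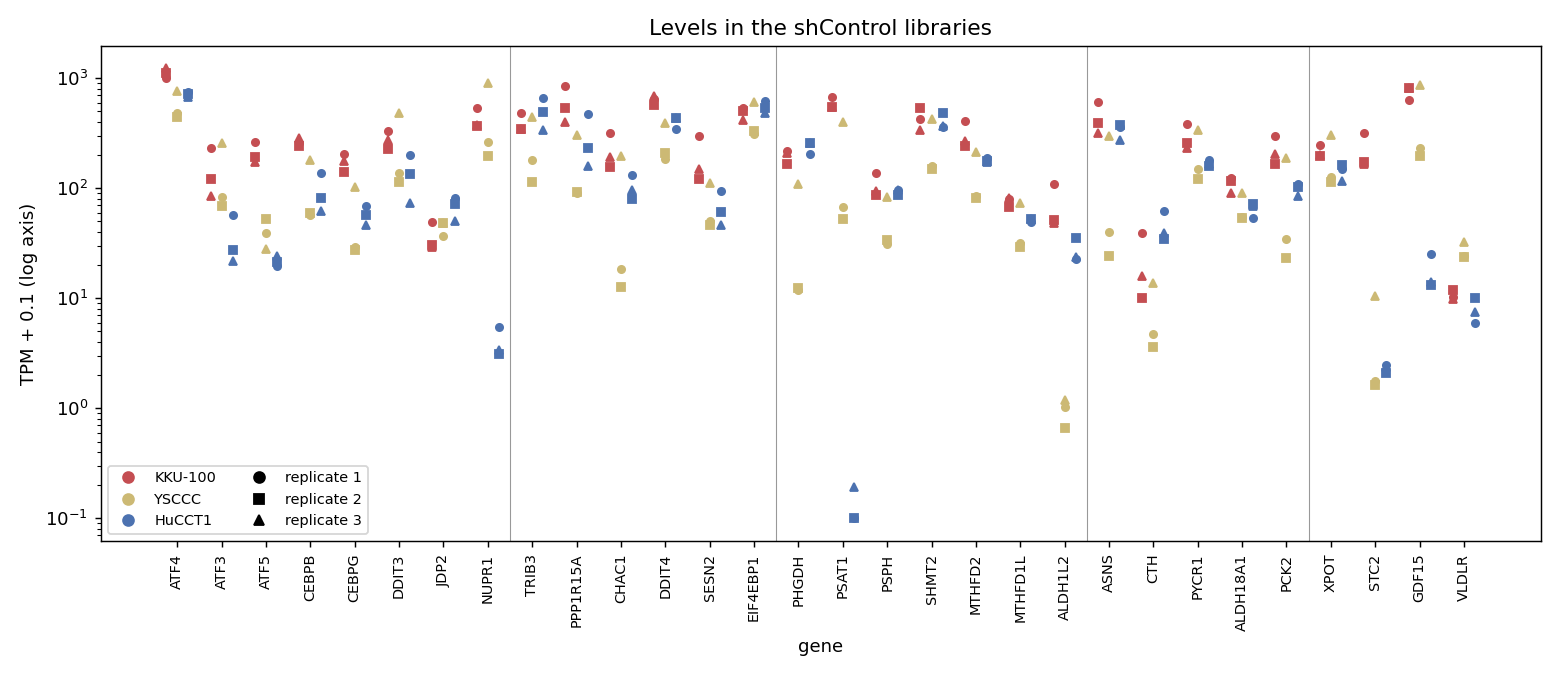
TPM + 0.1 on a log axis in the 9 shControl libraries for 30 genes, by line (colour) and replicate number (marker). PSAT1 in HuCCT1 and ALDH1L2 in YSCCC lie at the bottom of the range, and YSCCC replicate 3 stands above its replicates 1 and 2 for most genes.

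Among other genes of these pathways, 9 of 12 amino acid transporters were higher and 0 lower in KKU-100 than in YSCCC (27.9% of all genes tested were called higher), with SLC7A5 at 3.27 and SLC7A11 at 2.63 log2 units, and 7 were higher and 1 lower than in HuCCT1 (27.3% of all genes tested were called higher). The tRNA synthetases had 5 of 20 higher and 0 lower in KKU-100 than in YSCCC, and 2 higher and 3 lower than in HuCCT1, in all a smaller share than the 60.7% and 57.4% of all genes called in those comparisons. Among the other folate and glycine enzymes ALDH1L1, the cytosolic relative of ALDH1L2, was lower in KKU-100 than in YSCCC (-6.64). All 11 p53 targets called between KKU-100 and HuCCT1, of 12 tested, were higher in KKU-100.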

How the data were processed

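Polyadenylated RNA was sequenced (TruSeq) from 18 libraries, 3 per group. Per the submitters' processing notes, build GRCh38 was used with HTSeq 0.6.1p1, STAR 2.5.1b, DESeq2 1.34.0, StringTie 2.1.6, Picard 1.139 and FastQC 0.11.9. Their order, the filters and any strandedness option were not given in those notes. The files' headers name, for each gene, deposited raw counts, FPKM and TPM beside a coverage signal and a signal of scaled counts. Only the deposited counts and TPM were used. Because strandedness is not given, reads of the 13 members that overlap another gene may be shared.

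Counts were tested with edgeR 4.0.16 (its quasi-likelihood test in R 4.3.3, after TMM scaling and a filterByExpr filter at a minimum count of 10 and total of 15), with Benjamini-Hochberg adjustment over all genes tested and a threshold of 0.05. Hairpin effects were fitted per line with the replicate number as a block. All 18 libraries gave the average and the differences between lines, and the 9 shControl libraries the levels. Same-numbered libraries deviated together from their group means (r of 0.730, 0.600 and 0.406 in KKU-100, 0.818, 0.723 and 0.902 in YSCCC, and 0.787, 0.706 and 0.763 in HuCCT1), above the minimum of 0.1. No source says what a number marks. Alternatives were other size factors, no filter, DESeq2 1.42.0, no block, each replicate left out and, added after seeing the data, limma 3.58.1 on log2(TPM + 1) and the settings for single replicate numbers. The fits were tested on simulated data. SE is the absolute log2 fold change over the root of F. Mean and SD of TPM are over replicates.

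Members and lists were chosen with earlier results of these data known. Named in each comparison were ATF4, DDIT3, TRIB3, ASNS, PSAT1, PHGDH, SHMT2 and MTHFD2, called members (the 12 with the largest change where more were called), and up to 3 called genes per list with at least 5 CPM. Members named beyond this rule were chosen after their values were seen. One gene that this rule selects is not reported here.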

Additional observations from a re-analysis of the deposited data

Results flagged for a closer look

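STC2 was singled out by a test of the difference in hairpin effect between lines. The effect in KKU-100 minus that in YSCCC was 0.94 log2 units (edgeR adjusted p = 0.0258). It was the only member called there, where 2.63% of all genes tested were called. The call was lost in 4 of 8 alternative settings. In all, 6 members had every pair higher in one line and every pair lower in another: STC2, VLDLR, ALDH18A1, MTHFD1L, ATF3 and SHMT2. The share of all genes with such opposite pairs is not given here, so the count of 6 cannot be set against a general rate. Among these 6 members only the STC2 difference between KKU-100 and YSCCC passed the threshold. For MTHFD1L the effect in KKU-100 minus that in YSCCC was -0.55 (edgeR adjusted p = 0.0542) and for VLDLR 0.65 (adjusted p = 0.0811). Groups of 3 replicates were not screened for single outlying samples.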

How the results depend on the processing

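Of the counts of called members under other settings, 108 stayed within 1.5 times the main count and 51 did not; of the values of single members, 1552 stayed on the same side of the threshold, 160 lost a call, 45 gained one and 1 called value reversed. Of the 1552, 69 changed sign without a call in either setting, 5 of them with both sizes above 0.2 log2 units (ASNS, DDIT3 and PSAT1). The called value that reversed was ASNS in replicate 1 against the other numbers in HuCCT1, at -0.24 by limma on log2(TPM + 1). For replicate 3 of YSCCC 24 to 28 members were called when a library or number was left out. The cause of the shifts below was not tested.

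Without the replicate block, the hairpin called 0 members in YSCCC, 0 on average over the lines and 0 for KKU-100 minus YSCCC. Without the filter it called 2 in HuCCT1, 6 in YSCCC, 2 for YSCCC minus HuCCT1, 3 for KKU-100 minus HuCCT1 and 2 for KKU-100 minus YSCCC, and the replicate number in KKU-100 called 11. DESeq2 called 2 in HuCCT1, 2 in KKU-100, 2 for YSCCC minus HuCCT1, 2 for KKU-100 minus HuCCT1, 4 for KKU-100 minus YSCCC and 13 for the replicate number in KKU-100. Limma on TPM called 1 in YSCCC, 1 for YSCCC minus HuCCT1, 2 for KKU-100 minus YSCCC, 6 for the replicate number in HuCCT1, 1 in KKU-100, and 5, 1 and 3 for HuCCT1 replicates 1, 2 and 3.

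Leaving out a replicate or library gave 0 to 7 called members for the hairpin in HuCCT1, 0 to 3 in YSCCC, 0 to 1 in KKU-100, 0 to 3 on average, 0 to 1 for YSCCC minus HuCCT1 and 0 to 0 for KKU-100 minus YSCCC. Between shControl lines it gave 7 to 23 for YSCCC against HuCCT1, 10 to 18 for KKU-100 against HuCCT1 and 10 to 29 for KKU-100 against YSCCC. For replicate number it gave 3 to 25 in YSCCC, 0 to 9 in KKU-100, 0 to 10 for KKU-100 replicate 1, and 3 to 14, 8 to 11 and 1 to 14 for HuCCT1 replicates 1, 2 and 3. Where this left 1 library in an arm, that library was assumed to vary like the others. Depth limits PSAT1 and NUPR1 in HuCCT1, and STC2 and ALDH1L2 in YSCCC. ASNS counts were low beside its TPM, with a median of 54.2 TPM per CPM, and the reason was not tested.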
